A study of Mus musculus with 5 samples.

Results

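The genes described here concern the formation and clearance of methylglyoxal and other reactive aldehydes and of the D-lactate made from methylglyoxal. They are Glo1, Hagh, Ldhd, Park7, Akr1b3, Akr1b8, Aldh2, Aldh3a1, Aldh9a1, and Maob. They were taken by symbol, and all 10 were found among the 24421 genes of both deposited tables. RNA-seq was performed on 5 mouse libraries, 1 for each condition. MEFs are fibroblasts, which the study grew from CF-1 mouse embryos. iPSCs are induced pluripotent stem cells. The study's methods describe both an iPS line from a cell collection and the reprogramming of MEFs with viruses, and which of them was sequenced is not given in the sources used here. V6.5 is a mouse embryonic stem cell (mESC) line, sequenced untreated, with a non-targeting control shRNA (NTC), or with an shRNA against Gldc (shGldc). Both shRNA lines are described as stably expressing the hairpin, and no clone is named. The sources used here do not settle which Gldc hairpin was sequenced. The labels describe mESCs and iPSCs grown without feeders on gelatin, in a serum replacement medium with leukaemia inhibitory factor, and MEFs grown in a serum medium. The study's methods also describe mouse ES and iPS cultures on feeder cells with serum, without tying either to these libraries. Cell type and culture cannot be told apart in any comparison with MEFs, and the part of any feeder fibroblasts was not tested. The first table holds MEFs, V6.5 cells, and iPSCs, and the second holds the NTC and shGldc libraries. With 1 library per condition there is no replicate error, and no test was possible.

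Methylglyoxal is a reactive dicarbonyl that escapes from the triose phosphates of glycolysis and also forms when amine oxidases act on aminoacetone, a product of threonine breakdown. The glyoxalase system is its main route of removal. Glo1 isomerises the hemithioacetal of methylglyoxal and glutathione, Hagh hydrolyses the product and frees D-lactate, and Ldhd oxidises D-lactate to pyruvate. Aldo-keto reductases and aldehyde dehydrogenases take methylglyoxal and other aldehydes through reduction or oxidation, and monoamine oxidases release aldehydes from amines.

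All values are FPKM, that is, fragments per kilobase of transcript scaled to the mapped fragments of the library. A ratio is given on the log2 scale after 0.1 was added to each FPKM, which understates the change of low genes. The 4 main comparisons lie within a table. A gene was counted in one of them where 1 or both libraries reached 1 FPKM, and as higher or lower when the ratio passed 2-fold. A gene that passed this filter through 1 library alone could only be counted past 2-fold on the side of that library. Ratios over V6.5 cells for the shRNA lines cross the tables, include any difference between them, and are named as such. The spacing of low FPKM values gave a depth of 22200000 to 29000000 fragments per library. In the second table the spacing could also be read as wider by a factor of 2, and the depth as that much lower. Cell identity was checked with markers. The 6 pluripotency genes summed to 3.03 FPKM in MEFs and to between 3496 and 6551 FPKM in the other libraries, and 6 fibroblast genes summed to 6499 FPKM in MEFs and to at most 48.3 FPKM elsewhere, in V6.5 cells, where Col1a1 stood at 20.5 FPKM. The MEF library also held macrophage transcripts, with all 6 markers above 1 FPKM and a sum of 296 FPKM against at most 20.6 FPKM elsewhere, where C1qc was listed at 0 and Cd68 made up most of the sum. Their part in the MEF values was not tested. Gldc, the targeted gene, stood at 74.7 FPKM in NTC cells and 2.07 FPKM in shGldc cells, a log2 ratio of -5.11.

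The levels spanned several orders of magnitude. Park7, which encodes DJ-1, a redox-sensitive protein for which glyoxalase and deglycase activities have been described, was the most abundant of the 10 genes in all 5 libraries. It made up between 46.0% of their summed FPKM in MEFs and 71.1% in shGldc cells. Glo1, Aldh2, Hagh, and Aldh9a1 each reached 13.2 FPKM or more in every library. Akr1b8 lay between 6.26 and 33.5 FPKM. The remaining 4 genes, Ldhd, Akr1b3, Aldh3a1, and Maob, never exceeded 2.30 FPKM. The rank of the genes was not fixed. Aldh9a1 was the fifth of the 10 in MEFs, with Hagh just below it, and moved to the second place in V6.5 cells.

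**Figure D1:**
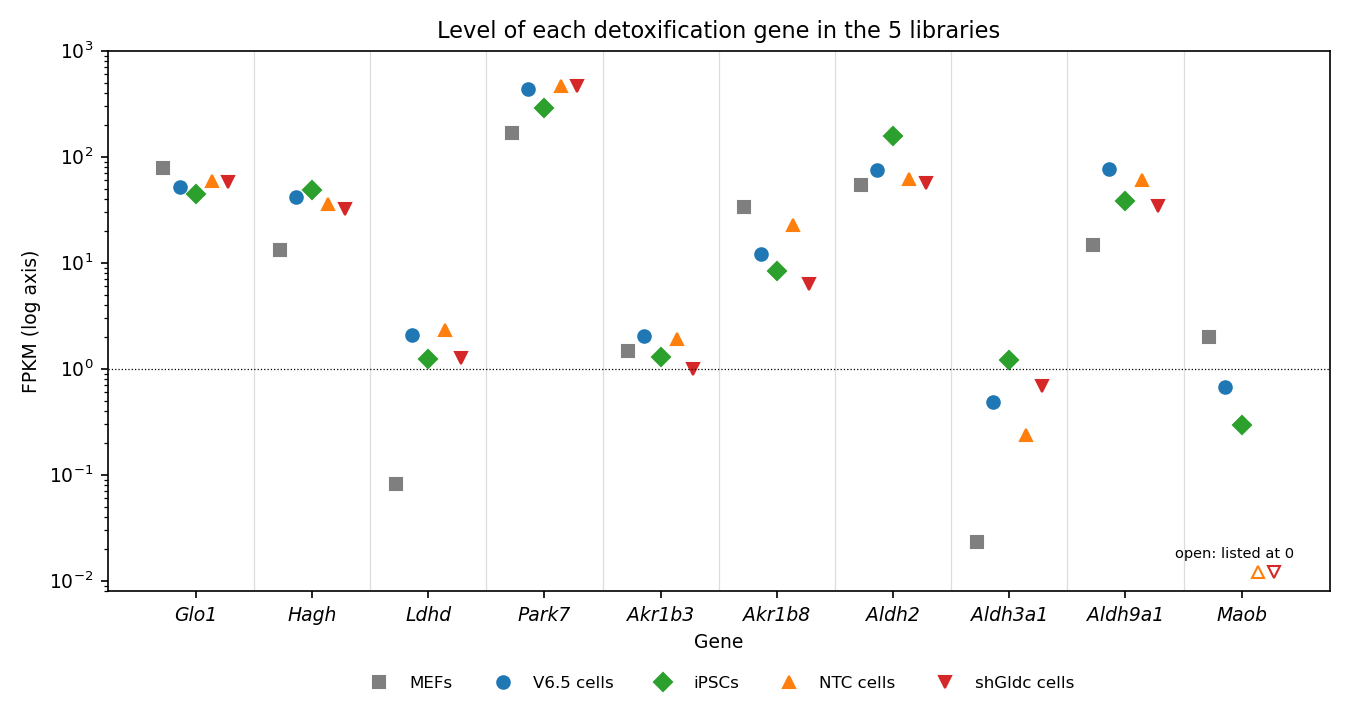
FPKM of each gene in MEFs (squares), V6.5 cells (circles), iPSCs (diamonds), NTC cells (upward triangles), and shGldc cells (downward triangles), on a log axis, with 1 library per point. The dotted line marks 1 FPKM, and the open triangles for Maob are values listed at 0. Ldhd and Aldh3a1 were lowest in MEFs, at 0.0816 and 0.0234 FPKM, and Maob was highest there, at 1.99 FPKM.

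Akr1b8, Aldh9a1, and Ldhd, the genes of the set with the lowest ratios in shGldc over NTC cells apart from Akr1b3, are shown with the bases before their transcription starts. The sequences are from RefSeq (GRCm38.p6, the assembly of mm10). Of the 10 genes, 6 had an entry, and the 250 bases before the start were searched. Capitals mark matches on either strand to 5 motifs. The GC box was searched as GGGCGG. The E-box that was searched reads CACGTG. For the TATA box the letters were TATAAA. The CCAAT box was searched by the letters of its name. The core of the antioxidant response element was searched as TGACNNNGC. The stretch shown ends before the first annotated exon of the gene in GENCODE. That is 27 bases before the RefSeq start for Akr1b8, 38 bases before it for Ldhd, and directly at it for Aldh9a1. Motif positions are counted back from the RefSeq start.

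Akr1b8, chr6:34353896-34354118, plus strand: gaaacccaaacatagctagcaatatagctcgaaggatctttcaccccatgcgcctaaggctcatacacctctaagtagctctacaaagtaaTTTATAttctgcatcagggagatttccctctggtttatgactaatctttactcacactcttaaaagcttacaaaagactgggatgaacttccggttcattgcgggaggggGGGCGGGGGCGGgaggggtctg

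Aldh9a1, chr1:167349741-167349990, plus strand: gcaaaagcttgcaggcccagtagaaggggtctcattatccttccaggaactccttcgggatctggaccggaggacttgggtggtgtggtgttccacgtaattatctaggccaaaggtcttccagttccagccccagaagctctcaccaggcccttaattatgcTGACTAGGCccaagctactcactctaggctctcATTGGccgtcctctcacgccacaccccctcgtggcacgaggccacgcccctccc

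Ldhd, chr8:111630375-111630586, minus strand: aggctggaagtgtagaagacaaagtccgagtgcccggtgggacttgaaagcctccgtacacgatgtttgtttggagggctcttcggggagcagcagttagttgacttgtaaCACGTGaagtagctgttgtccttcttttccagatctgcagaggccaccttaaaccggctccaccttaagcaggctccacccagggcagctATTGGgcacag

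Akr1b8 carried a pair of adjoining GC boxes, at 49 to 44 and 43 to 38 bases before the RefSeq start, and a TATA match on the other strand at 159 to 154 bases. Aldh9a1 carried an antioxidant response element core at 87 to 79 bases and a CCAAT box at 54 to 50 bases. Ldhd carried an E-box at 139 to 134 bases and a CCAAT box at 49 to 45 bases. No one motif was shared by all of these windows. Of 32851 windows of the same length, 32.7% held a GC box, 6.02% an E-box, 12.4% a TATA box, 33.8% a CCAAT box, and 10.2% the antioxidant response element core. A match describes the letters in the window only.

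The first step of the glyoxalase route was the least variable. Glo1 (chr17:30584936-30626871, minus strand, mm10) stood at 78.4 FPKM in MEFs, 52.3 in V6.5 cells, 44.4 in iPSCs, 59.1 in NTC cells, and 57.2 in shGldc cells. MEFs were the highest and iPSCs the lowest, and every ratio within a table stayed inside 2-fold on the deposited scale. The log2 ratio was -0.58 for V6.5 cells over MEFs and -0.82 for iPSCs over MEFs. The latter passed 2-fold once each library was scaled to a common FPKM total (-1.13) or ratios were centred on the median of all genes (-1.14). Sequence sharing limits this gene, since 46.9% of the 50-nt stretches of its reference transcript also occur in transcripts of other annotated genes, chiefly Gm13443, which is not listed in the tables.

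Hagh, the second step (chr17:24840143-24864450, plus strand), differed more. It stood at 13.2 FPKM in MEFs, 41.6 in V6.5 cells, 48.7 in iPSCs, 36.0 in NTC cells, and 32.3 in shGldc cells. The MEF library was the low one, and the pluripotent libraries lay close to each other. Hagh was 3.14-fold higher in V6.5 cells than in MEFs (95% counting interval 2.80 to 3.53) and 3.68-fold higher in iPSCs (3.28 to 4.13). Folds are ratios of the FPKM values without the added 0.1. The intervals are exact Clopper-Pearson intervals on the estimated fragments and cover counting error only. No stretch of the Hagh transcript was shared with another gene.

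As Glo1 was lower and Hagh higher in the pluripotent cells, their balance differed. Within a library the level of Hagh was 0.169 times that of Glo1 in MEFs, 0.796 times in V6.5 cells, and 1.10 times in iPSCs. It was 0.610 times in NTC cells and 0.563 times in shGldc cells. The balance thus differed most between MEFs and the other 4 libraries, and little between the shRNA lines. This ratio and the other ratios between genes within a library were chosen after the values were seen.

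Ldhd, which clears the D-lactate that Hagh frees, was near its detection limit in MEFs (chr8:111623785-111630374, minus strand). It stood at 0.0816 FPKM in MEFs, 2.08 in V6.5 cells, 1.23 in iPSCs, 2.30 in NTC cells, and 1.27 in shGldc cells. The MEF value corresponds to about 4.6 fragments, just above the 3 fragments taken as the floor, and the V6.5 value to about 117 fragments. The fold of V6.5 cells over MEFs was 25.5, with a counting interval of 9.77 to 73.6, and that of iPSCs over MEFs was 15.1 (5.61 to 44.0). The level of Ldhd stayed far below that of Hagh in every library, at 0.616% of it in MEFs and at most 6.39% in NTC cells. Of the exonic bases annotated to Ldhd, 42.2% overlap the neighbouring gene Znrf1, although the Ldhd reference transcript shares no 50-nt stretch with another gene. Znrf1 lay between 7.30 and 15.9 FPKM.

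Park7 (chr4:150897133-150914437, minus strand) stood at 168 FPKM in MEFs, 439 in V6.5 cells, 289 in iPSCs, 464 in NTC cells, and 465 in shGldc cells. The 3 V6.5-derived libraries were alike, iPSCs lay between them and MEFs, and MEFs were lowest. The log2 ratio was 1.39 for V6.5 cells over MEFs and 0.78 for iPSCs over MEFs, so only the former passed 2-fold. The level of Park7 was 2.14 times that of Glo1 in MEFs and between 6.53 and 8.40 times in the other libraries.

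The wider list of 7 glyoxalase and D-lactate genes adds Haghl, Glod4, and Glod5, relatives of Hagh and Glo1 whose roles are less settled. In V6.5 cells over MEFs, 4 of 7 were higher and 0 lower, against 30.3% and 23.3% of all genes, with a median log2 ratio of 1.39 against 0.25. Of the higher genes, Ldhd and Glod5 passed the filter only through their V6.5 level. For iPSCs over MEFs the counts were 2 of 6 higher and 0 lower, against 31.5% and 21.3% of all genes (median 0.56 against 0.31). Of these, Ldhd passed only through its iPSC level. In iPSCs over V6.5 cells, 0 of 7 were higher and 1 lower, against 10.1% and 7.44% of all genes (median -0.55 against 0.04). For shGldc over NTC cells the counts were also 0 of 7 and 1, against 8.97% and 7.68% (median -0.05 against 0.04). In both of these the lower gene was Glod5, which stood at 1.66 FPKM in V6.5 cells, 0.33 in iPSCs, and 1.86 in NTC cells and was listed at 0 in MEFs and shGldc cells. Glod5 thus passed the filter there only through its V6.5 and NTC levels. Glod4 stood at 27.3 FPKM in NTC cells and 42.1 in shGldc cells, a log2 ratio of 0.62, the highest of the list in that comparison.

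Of the aldo-keto reductases Akr1b3 and Akr1b8, Akr1b8 differed more between the libraries. Its product reduces aliphatic and aromatic aldehydes. Akr1b8 (chr6:34354119-34368463, plus strand) stood at 33.5 FPKM in MEFs, 12.03 in V6.5 cells, 8.29 in iPSCs, 22.5 in NTC cells, and 6.26 in shGldc cells. MEFs and NTC cells were high, and untreated V6.5 cells, iPSCs, and shGldc cells were low. The log2 ratio was -1.47 for V6.5 cells over MEFs, -2.003 for iPSCs over MEFs, and -0.53 for iPSCs over V6.5 cells. Only 3.21% of the 50-nt stretches of its transcript were shared with other genes, chiefly its neighbour Akr1b10.

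Akr1b10, the paralogue next to it on chromosome 6, was likewise lower in V6.5 cells than in MEFs but was ordered differently in iPSCs and the shRNA lines. It stood at 9.22 FPKM in MEFs, 3.84 in V6.5 cells, 6.71 in iPSCs, 3.32 in NTC cells, and 7.31 in shGldc cells. The level of Akr1b8 was 3.63 times that of Akr1b10 in MEFs, 3.13 times in V6.5 cells, 1.23 times in iPSCs, 6.77 times in NTC cells, and 0.856 times in shGldc cells. shGldc cells were the one library in which Akr1b10 exceeded Akr1b8.

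Akr1b3 encodes mouse aldose reductase, which reduces glucose and methylglyoxal (chr6:34302434-34317478, minus strand). It was listed at 1.477 FPKM in MEFs, 2.03 in V6.5 cells, 1.28 in iPSCs, 1.91 in NTC cells, and 0.985 in shGldc cells. Its log2 ratios over MEFs were 0.43 for V6.5 cells and -0.19 for iPSCs, both within 2-fold. These values are uncertain, because 86.2% of the 50-nt stretches of its reference transcript also occur in other annotated genes. One of these, the annotated gene Gm6644, was listed at 69.1 FPKM in MEFs, 182 in V6.5 cells, 168 in iPSCs, 336 in NTC cells, and 213 in shGldc cells. How the authors' counting divided the shared reads is not given in the sources used here, so the level of Akr1b3 may not be read from its own row alone.

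Of 17 aldo-keto reductase genes, 6 passed the filter in each comparison of the first table and 7 in shGldc over NTC cells. Akr1a1, which encodes the broad aldehyde reductase of this family, held 86.6% of the family's summed FPKM in MEFs, 74.6% in V6.5 cells, 84.0% in iPSCs, 74.6% in NTC cells, and 80.0% in shGldc cells. Akr1b8 held between 1.74% in shGldc cells and 7.11% in NTC cells. In V6.5 cells over MEFs, 1 gene was higher (Akr1e1, 1.20) and 3 were lower (Akr1b8, Akr1b10 at -1.24, and Akr1a1 at -1.06), against 30.3% and 23.3% of all genes, with a median of -0.31 against 0.25. Over MEFs, iPSCs had 1 gene higher (Akr1e1, 1.65) and 1 lower, which was Akr1b8, against 31.5% and 21.3% of all genes, with a median of -0.30 against 0.31. Between iPSCs and V6.5 cells, none of the 6 passed 2-fold, against 10.1% of all genes higher and 7.44% lower, and Akr1b10 (0.79) and Akr1b3 (-0.62) were the extremes around a median of 0.09.

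The aldehyde dehydrogenases of the set were all higher in at least 1 pluripotent library than in MEFs, to different degrees. Aldh2 is the mitochondrial enzyme that oxidises acetaldehyde and other small aldehydes (chr5:121566027-121593824, minus strand). It stood at 53.6 FPKM in MEFs, 75.8 in V6.5 cells, 157 in iPSCs, 61.3 in NTC cells, and 56.1 in shGldc cells. The iPSC library was the high one, and MEFs, NTC cells, and shGldc cells lay close together. Aldh2 was 2.92-fold higher in iPSCs than in MEFs (counting interval 2.83 to 3.02) and 2.07-fold higher than in V6.5 cells (2.01 to 2.13), whereas V6.5 cells were 1.41-fold above MEFs.

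Aldh9a1 encodes the aldehyde dehydrogenase that acts on trimethylaminobutyraldehyde in carnitine synthesis and on aminobutyraldehyde (chr1:167349991-167368532, plus strand). It stood at 14.9 FPKM in MEFs, 77.05 in V6.5 cells, 38.0 in iPSCs, 59.97 in NTC cells, and 34.1 in shGldc cells. Here V6.5 and NTC cells were high, iPSCs and shGldc cells intermediate, and MEFs low. Aldh9a1 was 5.19-fold higher in V6.5 cells than in MEFs (4.85 to 5.55) and 2.56-fold higher in iPSCs (2.38 to 2.76). It was 2.03-fold lower in iPSCs than in V6.5 cells.

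Aldh2 and Aldh9a1 were level in V6.5 and NTC cells, while Aldh2 exceeded Aldh9a1 in the other libraries. The level of Aldh2 was 3.61 times that of Aldh9a1 in MEFs, 0.984 times in V6.5 cells, 4.12 times in iPSCs, 1.02 times in NTC cells, and 1.64 times in shGldc cells. Of the summed FPKM of 21 aldehyde dehydrogenase genes, which was 279 in MEFs, 379 in V6.5 cells, 429 in iPSCs, 360 in NTC cells, and 318 in shGldc cells, Aldh2 held 19.2% in MEFs, 20.002% in V6.5 cells, 36.5% in iPSCs, 17.0% in NTC cells, and 17.6% in shGldc cells. Aldh9a1 held 5.33% in MEFs, 20.3% in V6.5 cells, 8.86% in iPSCs, 16.7% in NTC cells, and 10.7% in shGldc cells. In MEFs the largest share belonged to Aldh18a1, an enzyme of proline synthesis, at 30.3%.

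**Figure D2:**
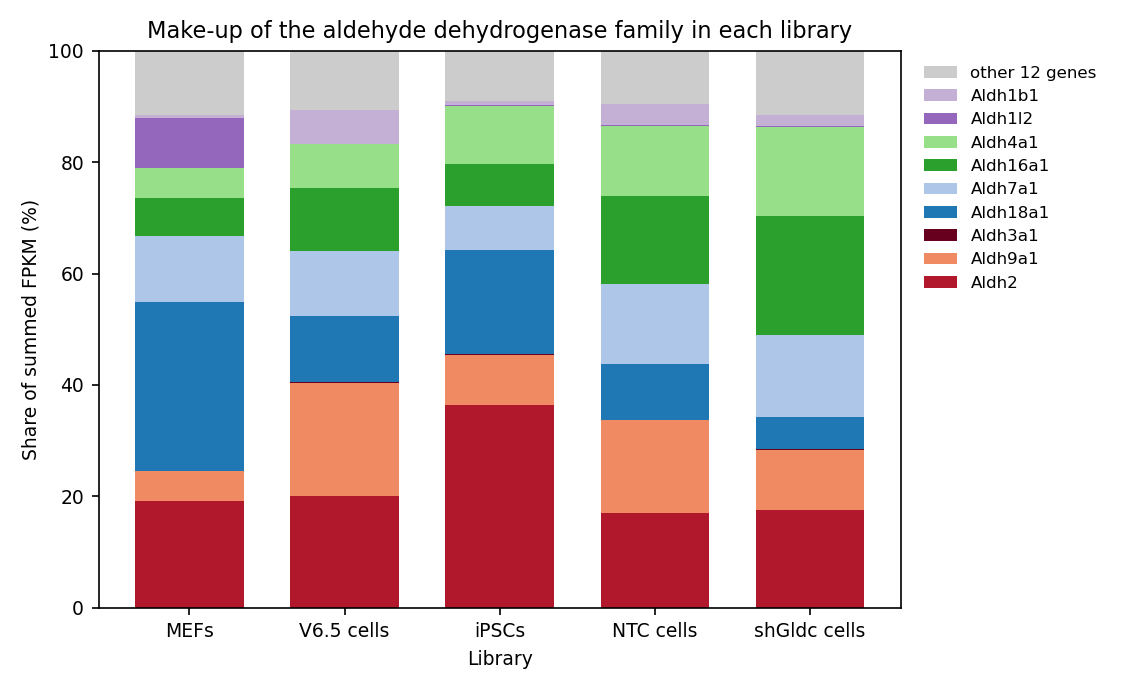
Share of the summed FPKM of the 21 aldehyde dehydrogenase genes held by each gene, as stacked bars that add up to 100% in each of the 5 libraries. Aldh2 (dark red) held 36.5% in iPSCs, and Aldh9a1 (orange) ranged from 5.33% in MEFs to 20.3% in V6.5 cells.

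Aldh3a1 encodes a cytosolic enzyme that oxidises aromatic and medium-chain aldehydes and is best known from cornea and stomach (chr11:61207537-61218421, plus strand). It stood at 0.0234 FPKM in MEFs, 0.484 in V6.5 cells, 1.22 in iPSCs, 0.239 in NTC cells, and 0.693 in shGldc cells. iPSCs were the only library above 1 FPKM, so Aldh3a1 passed the filter in the 2 comparisons with iPSCs alone. The MEF value corresponds to about 1.0 fragment, under the floor of 3 fragments (0.0702 FPKM). With 0.1 added the log2 ratio of iPSCs to MEFs was 3.41. The ratio of iPSCs to MEFs was 51.9 with a counting interval of 8.94 to 2109, and that of iPSCs to V6.5 cells was 2.51 (1.46 to 4.38).

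Over the family of 21, 16 genes passed the filter in V6.5 cells over MEFs, of which 7 were higher and 3 lower, against 30.3% and 23.3% of all genes (median 0.74 against 0.25). In iPSCs over MEFs, 17 passed, with 9 higher and 3 lower, against 31.5% and 21.3% (median 1.08 against 0.31). Aldh1l2, a mitochondrial folate enzyme, was the lowest of the family in both, at 24.9 FPKM in MEFs against 0.28 in V6.5 cells and 0.88 in iPSCs. In iPSCs over V6.5 cells, 15 passed, with 2 higher and 3 lower, against 10.1% and 7.44% (median -0.28 against 0.04). Aldh3a1 had the highest ratio of that comparison, at 1.17, and Aldh1b1, a mitochondrial relative of Aldh2, the lowest, at -2.74.

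Maob, which encodes monoamine oxidase B of the outer mitochondrial membrane, ran the other way (chrX:16709282-16817366, minus strand). It stood at 1.99 FPKM in MEFs, 0.675 in V6.5 cells, and 0.297 in iPSCs, and it was listed at 0 in NTC and shGldc cells. The MEF library was the highest, and the pluripotent libraries were all below 1 FPKM. The log2 ratio was -1.43 for V6.5 cells over MEFs and -2.40 for iPSCs over MEFs. The floor of 3 fragments corresponds to 0.0429 FPKM for NTC and 0.0434 FPKM for shGldc, or 0.0858 and 0.0867 with the wider spacing. The summed fibroblast markers were also highest in MEFs, as given above, and their part in the Maob values was not tested.

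Maoa, the related gene that acts on serotonin and noradrenaline, was also highest in MEFs, at 14.5 FPKM, against 7.38 in V6.5 cells, 5.58 in iPSCs, 4.50 in NTC cells, and 3.62 in shGldc cells. Aoc3, whose product can oxidise aminoacetone, did not pass 0.47 FPKM in any library. Of 7 amine oxidase genes, 5 passed the filter in V6.5 cells over MEFs, with 2 higher (Paox, a polyamine oxidase, the highest at 1.58) and 1 lower, which was Maob, against 30.3% and 23.3% of all genes (median 0.68 against 0.25). In iPSCs over MEFs 5 passed, with 1 higher (Aoc2, 2.32) and 2 lower, with Maob the lowest, against 31.5% and 21.3% (median 0.58 against 0.31). In iPSCs over V6.5 cells 4 passed, with 1 higher and 0 lower, against 10.1% and 7.44% (median -0.14), between Aoc2 at 1.14 and Paox at -0.996. In shGldc over NTC cells 3 passed and none was past 2-fold, against 8.97% of all genes higher and 7.68% lower, between Smox at 0.47 and Maoa at -0.31 (median -0.22).

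Counted over the set, more of these genes were higher than lower in the pluripotent cells when compared with MEFs. In V6.5 cells over MEFs, 9 of 10 passed the filter. Hagh, Ldhd, Park7, and Aldh9a1 were higher (4 genes, against 30.3% of the 12840 genes tested), and Akr1b8 and Maob were lower (2 genes, against 23.3%). Ldhd passed the filter only through its V6.5 level and Maob only through its MEF level. Glo1, Akr1b3, and Aldh2 lay within 2-fold. The median log2 ratio was 0.50, and that of all genes was 0.25.

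In iPSCs over MEFs, all 10 genes passed the filter, Ldhd and Aldh3a1 only through their iPSC level and Maob only through its MEF level. Hagh, Ldhd, Aldh2, Aldh3a1, and Aldh9a1 were higher (5 genes, against 31.5% of the 13032 genes tested). Akr1b8 and Maob were lower (2 genes, against 21.3%). The median was 1.07 against 0.31 over all genes. Both comparisons use the same MEF library, so their agreement is not independent. With so many genes past 2-fold in either direction, these counts describe the genes and do not set them apart.

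iPSCs and V6.5 cells differed in fewer of them. Of 9 that passed the filter, Aldh2 (1.05) and Aldh3a1 (1.17) were higher in iPSCs, 2 genes against 10.1% of the 12323 genes tested. Aldh9a1 (-1.02) was lower, 1 gene against 7.44%. Aldh2 and Aldh9a1 sit close to the 2-fold line, just outside it, and on rescaled libraries Aldh2 was at 0.98. With a pseudocount of 1, Aldh3a1 was at 0.58. Ldhd (-0.71), Akr1b3 (-0.62), Park7 (-0.60), and Akr1b8 (-0.53) lay below 0 without reaching it, and Glo1 (-0.24) and Hagh (0.23) were nearest to 0. The median was -0.53 against 0.04 over all genes. Endoderm markers also differed between these libraries, with Gata4 at 9.99 FPKM in iPSCs against 3.52 in V6.5 cells, Gata6 at 4.46 against 0.65, and Sox17 at 2.57 against 0.57. The 4 of them summed to 17.0 against 4.73 FPKM, Afp was listed at 0 in both, and of the endothelial markers Pecam1 stood at 31.7 against 14.7 FPKM, with Cdh5, Kdr, and Tie1 at 0.54 FPKM or less in both. The 6 fibroblast markers summed to 24.5 FPKM in iPSCs against 48.3 in V6.5 cells, with Col1a1 at 1.68 against 20.5. Col1a2 stood at 0.86 against 15.3, whereas Twist1 (11.8 against 2.77) and Thy1 (8.30 against 5.63) were higher in iPSCs. The part of these markers' cells in the differences above was not tested.

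**Figure D3:**
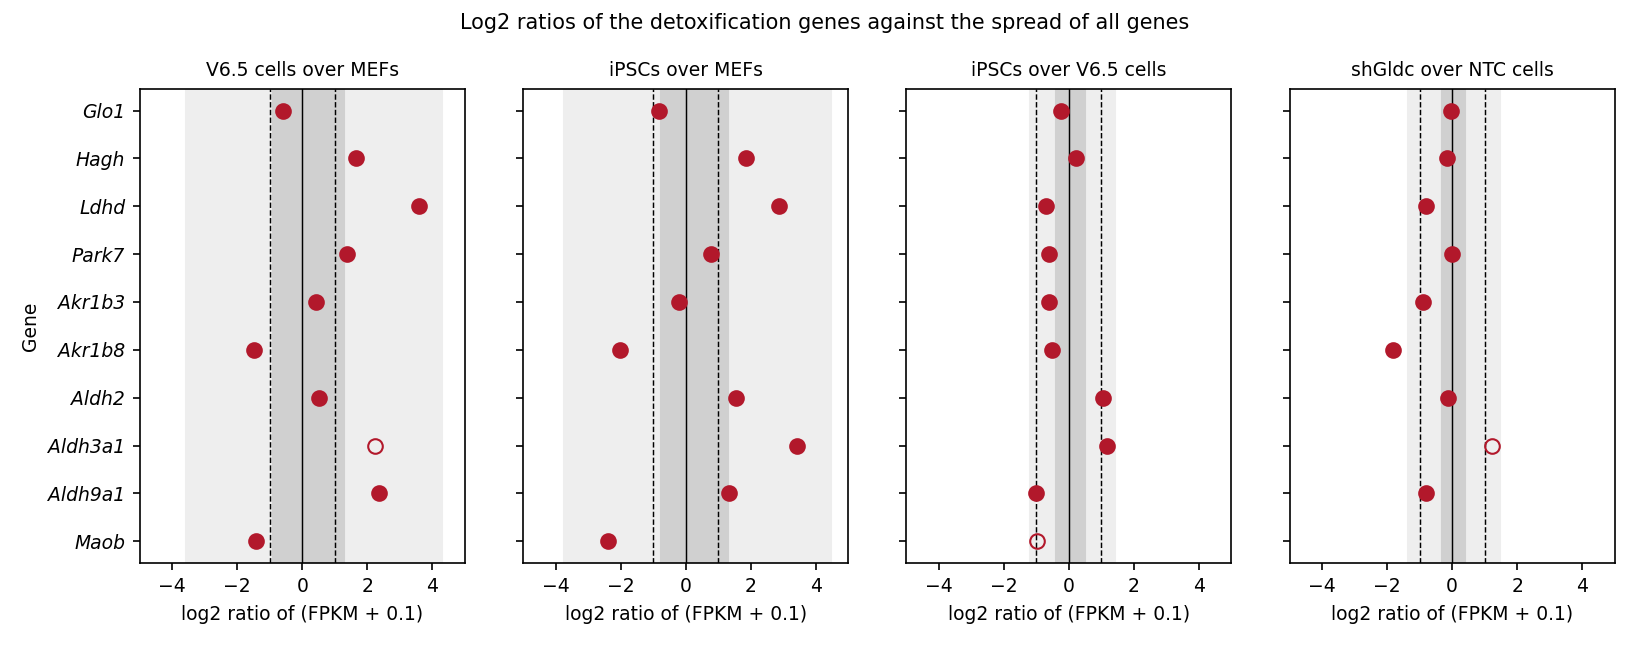
Log2 ratio of (FPKM + 0.1) for each gene in the 4 comparisons, with 1 library on each side of every ratio. The dark and light bands hold the central 50% and 90% of all genes that passed the filter, dashed lines mark 2-fold, and open circles mark genes that did not pass the filter in that comparison. Akr1b8 was the one gene beyond 2-fold among those that passed in shGldc over NTC cells, at -1.83.

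The comparison of shGldc with NTC cells asks how these genes stood when the glycine cleavage enzyme was depleted. The glyoxalase core and Park7 were nearly level between the lines. The log2 ratio was -0.05 for Glo1 (57.2 against 59.1 FPKM), -0.16 for Hagh (32.3 against 36.0), and 0.00 for Park7 (465 against 464). Aldh2 was also close, at -0.13 (56.1 against 61.3). The counting intervals of these folds were 0.901 to 1.04 for Glo1, 0.825 to 0.972 for Hagh, 0.978 to 1.03 for Park7, and 0.883 to 0.947 for Aldh2. With the wider spacing that of Hagh was 0.795 to 1.004, which includes 1. The intervals leave out variation between cultures, which 1 library per line cannot give.

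Akr1b8 was the one gene of the set lower by more than 2-fold. It was 3.60-fold lower, at 6.26 against 22.5 FPKM, about 244 against 887 fragments. The counting interval of the fold of shGldc over NTC cells was 0.240 to 0.321, and 0.226 to 0.341 with the wider spacing. Its log2 ratio of -1.83 lay at the 2.87th percentile of all genes. Akr1b3 (-0.89, with the shared sequence described above), Ldhd (-0.81), and Aldh9a1 (-0.81) had ratios below 0 that did not reach 2-fold, at the 8.99th, 10.1st, and 10.1st percentiles. The promoter sequences of Akr1b8, Ldhd, and Aldh9a1 given above held different motifs, of which only the CCAAT box stood in 2 of the 3. For Aldh9a1 the fold was 0.569 (0.543 to 0.596), and for Ldhd it was 0.550 (0.417 to 0.726).

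Of the 8 genes that passed the filter, 7 had a ratio below 0, and the median was -0.49 against 0.04 over all genes. Akr1b3 passed it only through its NTC level (1.91 FPKM against 0.985 in shGldc cells). The share of all genes with a ratio below 0 was not counted. Akr1b8 was the 1 gene lower by 2-fold, against 7.68% of the 11969 genes tested, and 0 were higher, against 8.97%. Aldh3a1 did not pass the filter, at 0.239 FPKM in NTC cells and 0.693 in shGldc cells, about 12 and 34 fragments. Maob was listed at 0 in both lines. Gata4 and Gata6, transcription factors of endoderm, were both higher in shGldc cells, Gata4 at 7.84 against 2.38 FPKM and Gata6 at 8.22 against 0.46. The 4 endoderm markers summed to 16.7 FPKM in shGldc against 3.003 FPKM in NTC cells, with Afp listed at 0 in both lines. Of the 6 pluripotency markers, Dppa5a was listed higher in shGldc than in NTC cells (1792 against 1440.4 FPKM) and the other 5 lower, among them Pou5f1 (915 against 1215), Sox2 (130.4 against 223), and Utf1 (312 against 572), none past 2-fold. Their sum was 3496 against 3850 FPKM. Of 4 endothelial markers, Tie1 stood at 3.09 FPKM in shGldc cells and 0.19 in NTC cells, Kdr was listed at 0 in shGldc cells and stood at 0.345 in NTC cells, and Cdh5 was listed at 0 in both. Their sum of 30.8 against 21.6 FPKM was mostly Pecam1 (27.7 against 21.05), which was present in every pluripotent library. The 6 fibroblast markers summed to 7.75 FPKM in shGldc cells against 13.4 in NTC cells. Thy1 (1.11 against 6.95 FPKM), Col1a1 (0.125 against 1.24), and Pdgfrb (2.24 against 2.88) were lower in shGldc cells. Twist1 (log2 ratio 0.77) and Col1a2 (0.621 against 0.225 FPKM) were higher, and Postn was listed at 0 in both lines. The part of these marker genes' cells in the values above was not tested, and in bulk RNA fewer cells of a type cannot be told apart from less RNA per cell.

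The untreated V6.5 library offers a second control, although it belongs to the separately made table, so the ratios below also hold any difference between the tables. For Akr1b8, untreated V6.5 cells (12.03 FPKM) lay between NTC (22.5) and shGldc cells (6.26). The log2 ratio was 0.90 for NTC over V6.5 cells and -0.93 for shGldc over V6.5 cells, so the gap between the shRNA lines was split about evenly around the untreated line. For Aldh9a1, both shRNA lines were below untreated V6.5 cells, at -0.36 for NTC and -1.17 for shGldc cells. Ldhd stood at 0.14 and -0.67, Akr1b3 at -0.09 and -0.97, and Glo1 at 0.18 and 0.13. Maob was at 0.675 FPKM in untreated V6.5 cells, about 40 fragments, and listed at 0 in both shRNA lines. A difference between the tables and one between the cells cannot be told apart here. Over all genes, the robust SD of the ratio of NTC over V6.5 cells was 0.59.

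**Figure D4:**
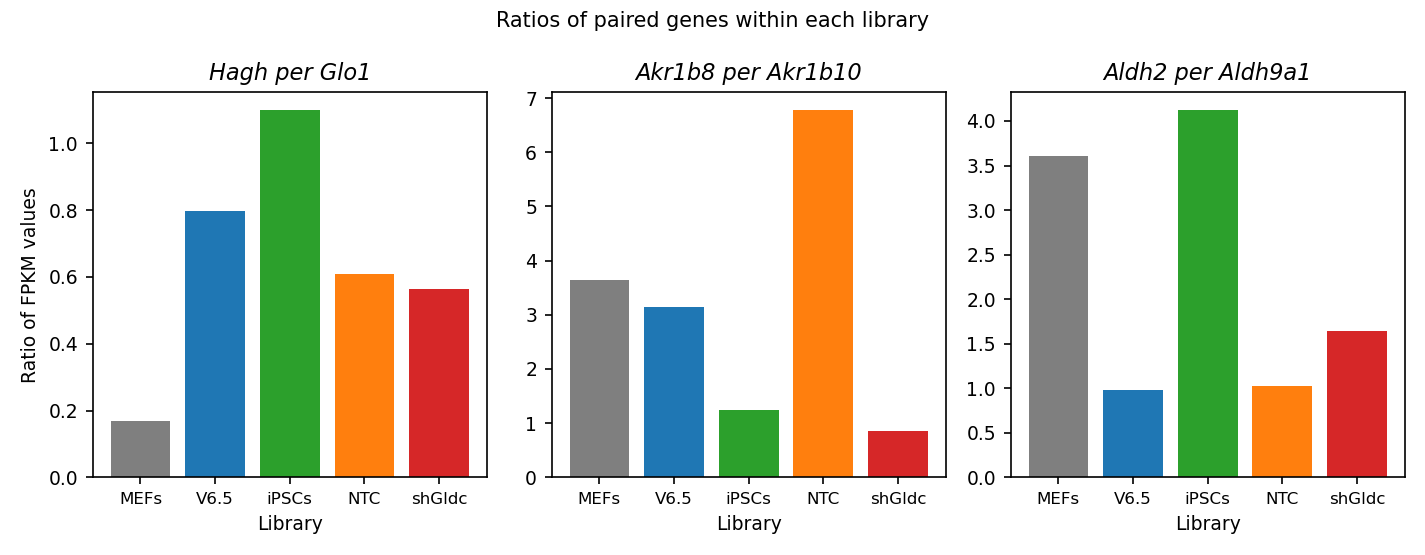
Ratio of the FPKM of Hagh to Glo1, Akr1b8 to Akr1b10, and Aldh2 to Aldh9a1 within each library, as bars that start at 0, with 1 library per bar. Hagh per Glo1 was lowest in MEFs (0.169), Akr1b8 per Akr1b10 was 0.856 in shGldc cells against 6.77 in NTC cells, and Aldh2 per Aldh9a1 was highest in iPSCs (4.12).

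The families of these genes were also compared between the shRNA lines, where 8.97% of all genes were higher and 7.68% lower, with a median of 0.04. Of the aldo-keto reductases, 2 of 7 were higher (Akr1b10 at 1.11 and Akr1cl at 1.09) and 2 were lower (Akr1b8 and Akr1e1, at -1.17), with a median of 0.16. Of the aldehyde dehydrogenases, 0 of 13 were higher and 3 were lower, namely Aldh1a2, a retinoic acid enzyme (-1.57), Aldh1b1 (-1.06), and Aldh18a1 (-1.01), with a median of -0.13. Aldh3a2, the fatty aldehyde enzyme, had the highest ratio, at 0.85.

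Genes whose products form or use the precursors of methylglyoxal were measured in the same libraries. Tdh, the threonine dehydrogenase whose unstable product can decay to aminoacetone, stood at 0.0856 FPKM in MEFs, 172 in V6.5 cells, 138 in iPSCs, 583 in NTC cells, and 188 in shGldc cells. Gcat, which turns the product of Tdh into glycine before it decays to aminoacetone, stood at 16.3, 53.6, 21.8, 55.4, and 30.4 FPKM in the same order. The study describes the reverse direction, in which excess glycine can be turned by Gcat into that product and further into methylglyoxal. The ratio of shGldc over NTC cells was -1.63 for Tdh and -0.86 for Gcat. Across the tables, NTC cells were above untreated V6.5 cells for Tdh, by 1.76 on the log2 scale. Tpi1, which interconverts the triose phosphates, was highest in MEFs, at 471 FPKM, and stood at 252 in NTC cells and 157 in shGldc cells.

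Over the 6 genes of this list, which adds Gapdh, Aldoa, and Aldoc, 4 were higher and 0 lower in V6.5 cells over MEFs, against 30.3% and 23.3% of all genes (median 1.86 against 0.25), with Tdh highest and Tpi1 lowest (-0.31). In iPSCs over MEFs, 2 were higher and 1 lower, against 31.5% and 21.3% (median 0.47 against 0.31), which was Tpi1 at -1.14. In iPSCs over V6.5 cells 0 were higher and 2 lower, against 10.1% and 7.44% (median -0.71 against 0.04), between Aldoa at -0.14 and Aldoc, a glycolytic aldolase, at -1.81. In shGldc over NTC cells 0 were higher and 2 lower, Tdh and Aldoc (-1.72), against 8.97% and 7.68%, with a median of -0.82 against 0.04. Gapdh was the highest there at 0.46, and like Akr1b3 it shares most of its transcript with copies (82.5%), so its listed 25.04 to 101 FPKM are uncertain.

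For 3 of the genes, those with the most similar differences within each table were found. Likeness was the Euclidean distance between log2 values centred within each table, so it takes no account of levels between tables, over 9179 genes with at least 1 FPKM in every library, and these points share the libraries. For Glo1 the nearest genes were Gnai3 (0.03), Neo1 (0.06), and Stam2 (0.07). For Aldh2 they were Tmem131 (0.12), Spen (0.13), and 2810013P06Rik (0.14). For Akr1b8 they were farther away, at 0.31 for Ddx58, 0.37 for Tppp3, and 0.39 for Arhgef25. Ddx58, a sensor of viral RNA, stood at 13.3 FPKM in MEFs, 3.97 in V6.5 cells, 3.13 in iPSCs, 8.85 in NTC cells, and 1.87 in shGldc cells.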

How the data were processed

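The authors extracted total RNA with TRIzol, made libraries with an NEBNext Ultra kit, and mapped reads with TopHat2 2.1.0. They assembled transcripts with StringTie 1.3.4d and computed gene expression with Ballgown. The submitters' processing notes also name SAMtools 1.7 and both mm9 and mm10, and the study's methods name mm10. The annotation, strand setting, and filters are not given in the sources used here. The authors deposited FPKM values in 2 separately made tables, with 1 library per condition.

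From these, log2(FPKM + 0.1) ratios were computed within a table where 1 or both libraries reached 1 FPKM, and genes past 2-fold were counted. Depth was estimated from the spacing of low FPKM values, over 5723 genes that have 1 annotated transcript. Overlaps, shared 50-nt stretches, and coordinates came from GENCODE M21 (mm10). Ratio and depth steps were tested on simulated data. Alternatives were other pseudocounts, filters, scalings, centring, fold lines, and the untreated control. Named genes were all 10 genes, Gldc, the precursor genes, the extremes of each list, and the 3 most like genes for Glo1, Akr1b8, and Aldh2. Further list genes, the marker genes, and genes that share or overlap sequence were named outside this rule. The genes and lists were chosen with earlier results of these data known. The work was done in Python 3.11.15 with pandas 2.3.3 and numpy 2.4.6, intervals with scipy 1.17.1, and plots with matplotlib 3.10.9.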

Additional observations from a re-analysis of the deposited data

How the results depend on the processing

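In iPSCs over MEFs, 4 of the genes passed 2-fold with a filter of 5 FPKM, against 7 with the filter of 1 FPKM, because fewer genes were tested. In iPSCs over V6.5 cells, 6 passed a line of 1.5-fold against 3 at 2-fold. In shGldc over NTC cells, 4 passed a line of 1.5-fold and 2 passed without a filter, where Aldh3a1 was added, against 1. Set against the untreated V6.5 library, the count was still 1, but the gene was Aldh9a1 (-1.17) and not Akr1b8 (-0.93). At these alternative settings the share of all genes was not counted, so none stands beside these counts. Leaving out Glo1 and Akr1b3, an alternative chosen after seeing the data, could not change any count. Neither gene passed 2-fold in any of the 4 comparisons at the main settings. Of 165 single-gene ratios under alternatives, 151 moved by less than 0.59 and 14 by more, mainly Ldhd, Aldh3a1, and Maob under other pseudocounts, and no ratio past 2-fold changed sign. A pseudocount of 1 ended the calls of Maob in V6.5 cells over MEFs (-0.84, count 5 against 6) and of Aldh3a1 in iPSCs over V6.5 cells (0.58, count 2 against 3). Rescaling or centring moved no ratio that far but added Glo1 in iPSCs over MEFs (-1.13 and -1.14, count 8 against 7), and rescaling ended the call of Aldh2 in iPSCs over V6.5 cells (0.98, count 2 against 3). No paired analysis was possible because each condition is 1 library. Depth limits the low genes: Aldh3a1 and Ldhd rest on about 1.0 and 4.6 fragments in MEFs.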

Other observations

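Further genes around aldehyde clearance were described by list, with 1 library per condition and no test. The shares of all genes at least 2-fold higher and lower, against which the counts stand, were 30.3% and 23.3% in V6.5 cells over MEFs, 31.5% and 21.3% in iPSCs over MEFs, 10.1% and 7.44% in iPSCs over V6.5 cells, and 8.97% and 7.68% in shGldc over NTC cells. The medians of all genes were 0.25, 0.31, 0.04, and 0.04 in the same order. Of 12 carbonyl reductase and alcohol dehydrogenase genes, 3 of 11 were higher and 3 lower in V6.5 cells over MEFs (median -0.23), and 4 of 11 were higher and 4 lower in iPSCs over MEFs (median 0.13). Adh5, the formaldehyde-clearing enzyme, stood at 62.4 FPKM in MEFs, 180.4 in V6.5 cells, 153 in iPSCs, 162 in NTC cells, and 143 in shGldc cells. In iPSCs over V6.5 cells, 2 of 8 were higher and 0 lower (median -0.09), between Dcxr, a xylulose and dicarbonyl reductase, at 1.45 and Cbr4 at -0.58. In shGldc over NTC cells, 3 of 9 were higher and 0 lower (median 0.10). These were Dcxr (74.9 FPKM in shGldc against 24.7 in NTC cells), Sord, the sorbitol dehydrogenase (51.0 against 24.4 FPKM), and Adh1, which was listed at 0 in NTC cells and stood at 3.76 FPKM in shGldc cells. Adh1 thus passed the filter only through its shGldc level. Of the 50-nt stretches of the Sord transcript, 31.3% also occur in Gm6652. Cbr3 was the lowest, at -0.88. Adh1 and Adh7 were highest in MEFs, at 10.3 and 4.19 FPKM.

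Glutathione, the cofactor of Glo1, depends on Gclc, Gclm, Gss, and Gsr. With the carnosine and deglycation genes this made a list of 9, of which 6 passed the filter in each comparison. Of these, 3 were higher and 0 lower in V6.5 cells over MEFs (30.3% and 23.3% of all genes; median 1.02 against 0.25), and 5 were higher and 0 lower in iPSCs over MEFs (31.5% and 21.3%; median 1.62 against 0.31). Gsr, the glutathione reductase, had the highest ratio in both, at 2.65 and 2.12, and Gss the lowest, at 0.33 and 0.21. None passed 2-fold in iPSCs over V6.5 cells (median 0.28, from Gsr at -0.53 to Gclc at 0.81) or in shGldc over NTC cells (median 0.33, from Gclc at -0.16 to Cndp2, a carnosine dipeptidase, at 0.95).

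Of 6 genes of the Nrf2 pathway, which responds to electrophiles, 3 were higher and 0 lower than in MEFs in both V6.5 cells (30.3% and 23.3% of all genes; median 0.33 against 0.25) and iPSCs (31.5% and 21.3%; median 0.80 against 0.31). Nqo1, a quinone reductase, led with 2.68 and 2.67, and Keap1, the inhibitor of Nrf2, was lowest with -0.71 and -0.76. Between iPSCs and V6.5 cells none of the 6 passed 2-fold (median 0.42, from Keap1 at -0.04 to Txnrd1 at 0.62). In shGldc over NTC cells, 1 was higher, Hmox1, the haem oxygenase (181 FPKM in shGldc against 87.2 in NTC cells), and 0 were lower (median 0.29), with Txnrd1 lowest at 0.11.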
